A study of Sus scrofa with 36 samples.

Results

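The small RNA libraries of 6 pig hearts, 3 taken on postnatal day 1 (P1) and 3 on postnatal day 28 (P28), were compared for their levels of mature microRNAs (miRNAs). A miRNA entered the comparison when 3 or more of these 6 libraries held at least 10 counts of it, and 240 of the 406 mature miRNAs in the deposited table did so. Of the others, 96 had no count in any of the 6 libraries and 70 had counts below that limit. The study followed circular RNAs, miRNAs and messenger RNAs (mRNAs) through the first weeks of life in hearts of domestic Yorkshire pigs, with 36 samples in all, to look for RNAs tied to the cell cycle of heart muscle cells. The animals of both ages were fed normally, and the labels name no treatment, injury or genetic change, and no difference between the groups other than age. The study used males and females at each age, and the sex of these 6 pigs was not taken into account. All 6 libraries belonged to batch cd, which 1 company (CD Genomics) prepared with the NEBNext small RNA kit and sequenced. Each library came from the heart of a different pig, and the tissue held myocytes and nonmyocytes together. The columns of the table are numbered 4, 5 and 6 at each age, which are not the sample numbers in the labels, so only the age of a column is known, and the numbers serve here as names of the libraries.

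A miRNA is cut from a hairpin-shaped precursor, which can give a mature miRNA from its 5′ arm (5p) and another from its 3′ arm (3p). Mature miRNAs guide the silencing complex to partly matching mRNAs and lower their translation or stability. In mammals the weeks after birth are when most heart muscle cells leave the cell cycle, metabolism turns from sugar toward fat, and oxygen in the blood rises, and several miRNA families are known for roles in these steps.

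The libraries held 3090038 to 7903836 counts, and 225 to 245 miRNAs reached 10 counts in a library. Levels are given as CPM, the counts relative to the size of the library, after scaling by the trimmed mean of M-values (TMM). A read spans a whole mature miRNA, so CPM needed no correction for length, although ligation and amplification favour some miRNAs over others and the reads carried no molecular identifiers. Rank correlations between libraries of the same age were 0.986 to 0.992 (Spearman's rho across miRNAs), against 0.954 to 0.967 between ages. miR-1 alone took 35.6% to 39.5% of the counts at P1 and 41.2% to 45.0% at P28, and the 10 most abundant miRNAs took 79.5% to 80.7%. TMM factors were 1.05 to 1.11 at P1 and 0.855 to 0.959 at P28.

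Hearts at P28 held more of the metabolic miRNA miR-378, of miR-95, of the collagen-repressing miR-29 family and of the blood cell miRNAs miR-451, miR-150 and miR-142 than hearts at P1, but less of miR-155-5p, another miRNA of blood cells. They held less of the hypoxia miRNA miR-210, of 8 of the 13 miRNAs tested from the imprinted DLK1-DIO3 region and of 4 of the 6 from an X-linked cluster of miR-450 and miR-542. The largest changes in either direction were those of miR-95, with a log2 fold change of P28 over P1 of 2.88 ± 0.22 (SE, n = 3 at each age), and miR-210, with −3.14 ± 0.17. The muscle miRNA miR-1, by far the most abundant, differed by 0.45 ± 0.10. edgeR's quasi-likelihood test called 95 of 240 miRNAs (39.6%) differentially expressed at a Benjamini-Hochberg adjusted p under 0.05, of which 51 were higher at P28 (21.2% of those tested) and 44 were lower (18.3%). In 38 of the 95 (15.8% of those tested) the log2 fold change exceeded 1 in size, with 22 higher (9.17% of those tested) and 16 lower (6.67%). At the other end, 21 called miRNAs changed by less than 1.5-fold. The median log2 fold change over all 240 was 0.02, and the middle 50% lay between −0.45 and 0.42. The 3 values of one age lay clear of the 3 values of the other for 129 miRNAs (53.8%), among them 94 of the 95 called. The exception was miR-3613. A threshold of the kind the study used, an unadjusted p of 0.05 or less with a log2 fold change over 0.5 in size, was passed by 89 miRNAs (37.1%), 44 higher (18.3%) and 45 lower (18.8%).

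The balance of higher against lower calls depended on the scaling. When libraries were scaled by their totals, with no TMM factor, 36 miRNAs were called higher and 71 lower and the median of all miRNAs moved to −0.23. With upper quartile scaling the split was 37 higher and 50 lower, and with all 12 libraries of the batch in the fit it was 36 higher and 60 lower. None of the 95 calls changed sign under any of these, and the changes below are relative to the TMM scaling unless another is named. The filter let in 2 miRNAs through 1 age alone, miR-217 and miR-9841-3p, which had at least 10 counts in all 3 P28 libraries and in no P1 library, where miR-217 had 5 to 7 counts and miR-9841-3p 1 to 5. Both were called higher, with log2 fold changes of 1.88 and 2.53, and stand within the counts above. They passed only through the age where they are high, so these 2 calls are not independent of the filter.

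**Figure D1:**
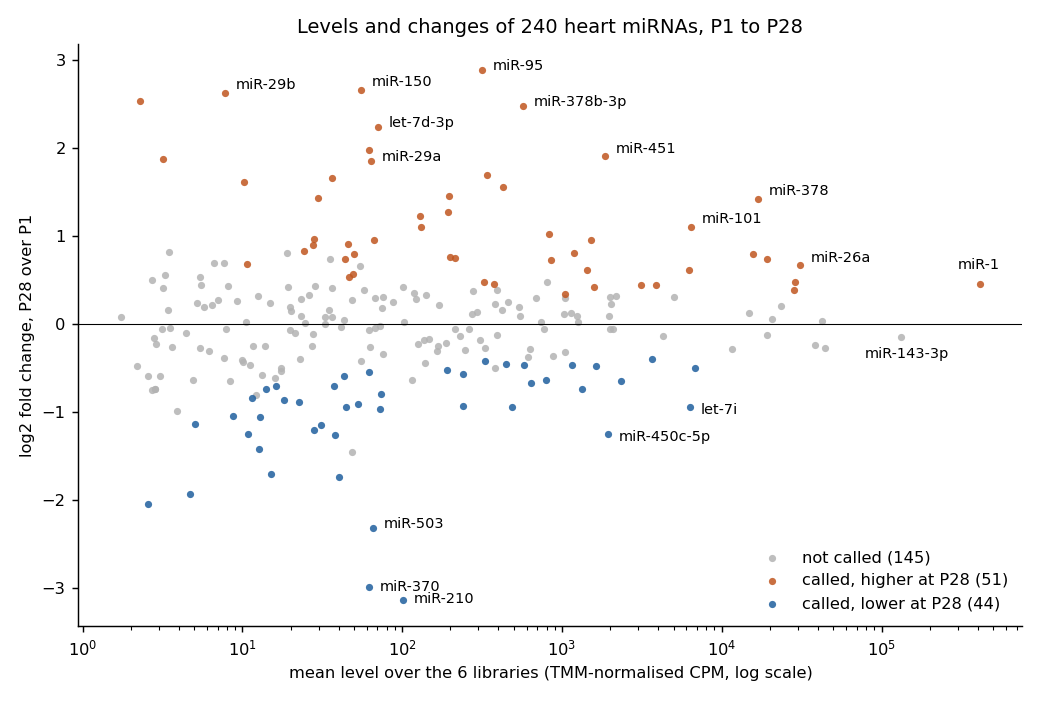
Each point is 1 of the 240 miRNAs tested; the x axis gives its mean level over the 6 libraries (TMM-normalised CPM, log scale) and the y axis its log2 fold change, P28 over P1. The 51 miRNAs called higher and the 44 called lower are spread over the whole range of levels, from a few CPM to miR-1 at the far right, and the changes beyond 2 on the log2 scale are all below 1000 CPM.

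miR-378 had the highest level of the 10 miRNAs with the smallest p among those higher at P28, and miR-378b-3p had the smallest p. miR-378 comes from 2 hairpins, one within the span of PPARGC1B, the gene of a coactivator of mitochondrial metabolism, and one within that of BCAS3, and the value is the sum of both. It measured 8849.8, 8782 and 9985 CPM at P1 and 25258, 22103 and 26395 CPM at P28. Every P28 library was above every P1 library by more than 2-fold (log2 fold change 1.42 ± 0.12 SE, adjusted p = 8.54e-06). miR-378b-3p, which carries the same family number, measured 158, 195 and 166 CPM at P1 and 933, 942 and 1003 CPM at P28 (log2 fold change 2.47 ± 0.14 SE, adjusted p = 6.56e-07). The P28 values were close together and far above those of P1. For miR-378 and for miR-378b-3p only 2 of the 6 values were whole before rounding, so reads were divided with other mature miRNAs. Whether these names share reads was not tested, so their rises may not be separate observations.

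The steepest rise was that of miR-95. It measured 66.2, 61.7 and 98.7 CPM at P1 and 607, 443 and 617 CPM at P28 (log2 fold change 2.88 ± 0.22 SE, adjusted p = 5.68e-06). Library 6 was the highest at P1 and library 5 the lowest at P28, and the groups stayed far apart. miR-150, abundant in mature lymphocytes, measured 15.1, 15.9 and 13.8 CPM at P1 and 99.1, 83.2 and 102 CPM at P28 (log2 fold change 2.66 ± 0.18 SE, adjusted p = 3.60e-06). let-7d-3p, the less abundant arm of the let-7d hairpin, measured 23.5, 30.5 and 19.7 CPM at P1 and 118, 109 and 121 CPM at P28 (log2 fold change 2.23 ± 0.20 SE, adjusted p = 1.73e-05). Both were uniformly low at P1 and uniformly high at P28.

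miR-139-5p, from a hairpin within PDE2A, the gene of a cyclic nucleotide phosphodiesterase, measured 196, 193 and 267 CPM at P1 and 652, 683 and 586 CPM at P28 (log2 fold change 1.55 ± 0.16 SE, adjusted p = 5.39e-05). miR-7134-3p, from a hairpin within TNRC6B, measured 132, 169.6 and 178 CPM at P1 and 607, 442 and 504 CPM at P28 (log2 fold change 1.69 ± 0.17 SE, adjusted p = 4.81e-05). miR-101, known for repressing the chromatin enzyme EZH2, measured 3876, 4833 and 3539 CPM at P1 and 8253, 9138 and 8873 CPM at P28 (log2 fold change 1.10 ± 0.14 SE, adjusted p = 1.67e-04). In each of these the age groups did not overlap, and miR-101 was the most abundant of the set after miR-378. The remaining pair of the leading 10, miR-29a and miR-29b, is described with its family.

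The largest fall was that of miR-210, the miRNA best known as a target of hypoxia-inducible factor. It measured 197, 194 and 157 CPM at P1 and 20.3, 21.2 and 20.7 CPM at P28 (log2 fold change −3.14 ± 0.17 SE, adjusted p = 6.56e-07). The P28 libraries were nearly equal and lay far below all P1 libraries. miR-370, one of the many miRNAs of the imprinted DLK1-DIO3 region, measured 100.2, 97.2 and 132 CPM at P1 and 17.1, 12.5 and 11.7 CPM at P28 (log2 fold change −2.995 ± 0.22 SE, adjusted p = 5.40e-06). All P28 values again lay far below all P1 values, although they were less alike than those of miR-210.

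miR-450c-5p and miR-503, whose names belong to a cluster on the X chromosome of mammals, both fell. miR-450c-5p measured 2729.7, 2617 and 2864 CPM at P1 and 1156, 1287 and 1011 CPM at P28 (log2 fold change −1.25 ± 0.13 SE, adjusted p = 4.81e-05). miR-503, a member of the miR-15 and miR-16 family by its seed and known for repressing cyclins, measured 158, 103 and 65.0 CPM at P1 and 19.1, 19.9 and 26.9 CPM at P28 (log2 fold change −2.32 ± 0.31 SE, adjusted p = 2.97e-04). The P1 values of miR-503 spread over more than 2-fold, from library 6 to library 4, whereas those of miR-450c-5p were close together.

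miR-132, known in rodents for promoting growth of heart muscle cells, measured 83.0, 39.0 and 63.2 CPM at P1 and 24.0, 13.6 and 17.9 CPM at P28 (log2 fold change −1.74 ± 0.31 SE, adjusted p = 0.00166). miR-215, a relative of miR-192 that is induced by p53, was scarce, at 6.97, 9.61 and 5.81 CPM at P1 and 2.48, 1.88 and 1.38 CPM at P28 (log2 fold change −1.94 ± 0.35 SE, adjusted p = 0.00182), which is 4 to 50 counts per library. These values did not overlap between ages, but both miRNAs were among the more variable of the leading 10. Of the other miRNAs with the smallest p among those lower at P28, let-7i is described with the let-7 family and miR-758, miR-127 and miR-323 with the DLK1-DIO3 miRNAs.

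**Figure D2:**
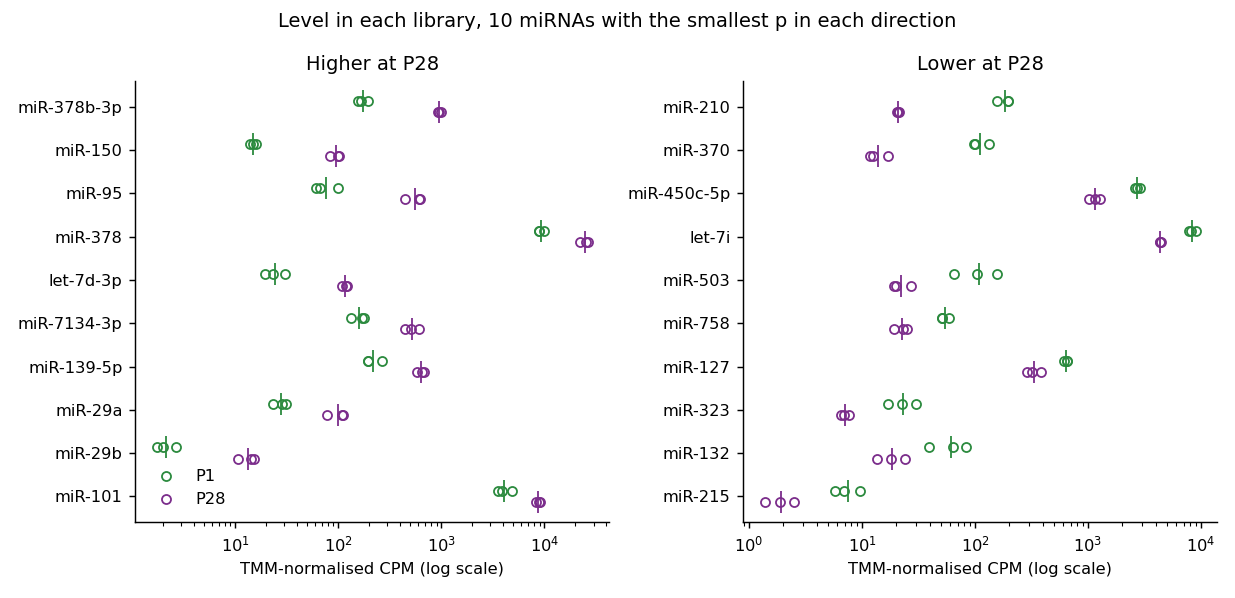
TMM-normalised CPM (x axis, log scale) of the 10 miRNAs with the smallest p among those higher at P28 (left) and the 10 among those lower (right); each open circle is 1 library, each vertical tick the mean of 3, green for P1 and purple for P28. In all 20 rows the green and purple circles are separate, closest together for miR-127, miR-132, miR-101 and let-7i.

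Of the 48 miRNAs with a mean above 1000 CPM, 25 were called (52.1%, beside 39.6% of all 240), 17 higher and 8 lower. The median size of the log2 fold change was 0.61 among these 25 and 0.96 among the 70 called at lower levels. miR-1, the muscle miRNA that restrains proliferation of heart muscle cells in mice, measured 354642, 361619.8 and 322553 CPM at P1 and 429828, 466389 and 526179.7 CPM at P28 (log2 fold change 0.45 ± 0.10 SE, adjusted p = 0.00557). The groups did not overlap, but the difference was no longer called with upper quartile scaling (log2 fold change 0.34, adjusted p = 0.0716) or with all 12 libraries in the fit (0.29, adjusted p = 0.0790). miR-26a, a widely expressed miRNA known for repressing cell cycle genes, measured 24356, 24886 and 22418 CPM at P1 and 38693, 36836 and 37913 CPM at P28 (log2 fold change 0.66 ± 0.10 SE, adjusted p = 4.97e-04).

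Of the other miRNAs among the 10 most abundant, miR-27b-3p and miR-30e-5p are described with their families and the rest were not called. miR-143-3p, a smooth muscle miRNA that ranked second, measured 119075, 152061 and 147214 CPM at P1 and 130635, 113858 and 133214 CPM at P28 (log2 fold change −0.15 ± 0.12 SE, adjusted p = 0.336). miR-148a-3p had a log2 change of −0.27 ± 0.11 SE, adjusted p = 0.0648, and miR-21, a miRNA of activated fibroblasts, of −0.25 ± 0.12 SE, adjusted p = 0.134. miR-30d stood at 0.03 ± 0.11 SE, adjusted p = 0.839, miR-30a-5p at 0.20 ± 0.14 SE, adjusted p = 0.291 and the endothelial miR-126-3p at 0.06 ± 0.14 SE, adjusted p = 0.769. The 95% intervals of these last 3 were −0.22 to 0.28, −0.12 to 0.51 and −0.26 to 0.37, and their sign turned negative when libraries were scaled by their totals.

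Markers of the cell types that heart tissue holds were read first from the miRNAs known for each. The miRNAs of heart and skeletal muscle were the most abundant set, with summed levels of 348296 to 390732 CPM at P1 and 465319 to 563123 CPM at P28. Those of endothelium summed to 20615 to 25784 CPM at P1 and 20366 to 25840.1 CPM at P28, and those of smooth muscle to 121499 to 154085 CPM at P1 and 116315 to 135820.0 CPM at P28, and both ranges overlapped between ages. The epithelial miRNAs miR-429 and miR-205 had 0 to 3 counts per library and none. Of the neuronal miRNAs, miR-124a had 0 or 1 count, whereas miR-9 was present and higher at P28, at 54.6, 35.2 and 46.9 CPM at P1 and 96.6, 88.8 and 76.9 CPM at P28 (log2 fold change 0.95 ± 0.20 SE, adjusted p = 0.00445). The liver miRNA miR-122 had 3, 60 and 26 counts at P1 and 7, 3 and 3 at P28 and was not tested.

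Several blood cell miRNAs differed with age. All 3 erythroid miRNAs tested were higher at P28, as were 21.2% of all tested, with summed levels of 1054 to 1639 CPM at P1 and 3642 to 4346 CPM at P28. miR-451, which red cell precursors make in quantity, measured 457, 1144 and 744 CPM at P1 and 2444, 3041 and 3273 CPM at P28 (log2 fold change 1.90 ± 0.28 SE, adjusted p = 4.97e-04). Its P1 values were widely spread, with library 4 the lowest. miR-144, from the same precursor transcript, measured 7.55, 27.3 and 13.2 CPM at P1 and 38.9, 42.9 and 49.6 CPM at P28 (log2 fold change 1.42 ± 0.37 SE, adjusted p = 0.0127), and miR-486, from ANK1 and shared by red cells and muscle, measured 589.6, 466 and 882 CPM at P1 and 1158, 1029 and 1023 CPM at P28 (log2 fold change 0.73 ± 0.21 SE, adjusted p = 0.0193). miR-144 was not called without P1 library 6, P28 library 5 or P28 library 6 (adjusted p up to 0.0626) or with all 12 libraries in the fit (0.0670), and miR-486 without P1 library 4, P1 library 5, P28 library 5 or P28 library 6 (up to 0.0936) or with library totals or upper quartile scaling (0.0987 and 0.116), while its log2 fold change was 1.10 without P1 library 6.

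Of 6 leukocyte miRNAs tested, 4 were higher and 1 lower at P28, beside 21.2% and 18.3% of all tested, and their summed levels were 283 to 401 CPM at P1 and 448 to 700.5 CPM at P28. Beside miR-150, both arms of the miR-142 hairpin, which blood cells of every lineage express, rose. miR-142-3p measured 17.7, 19.8 and 14.7 CPM at P1 and 66.1, 48.4 and 50.7 CPM at P28 (log2 fold change 1.66 ± 0.21 SE, adjusted p = 1.92e-04), and miR-142-5p had a log2 change of 1.97 ± 0.30 SE, adjusted p = 5.40e-04. miR-146a-5p, part of a feedback on NF-κB signalling, measured 103, 75.7 and 70.8 CPM at P1 and 224, 131 and 179.6 CPM at P28 (log2 fold change 1.10 ± 0.22 SE, adjusted p = 0.00364). miR-155-5p, induced in activated lymphocytes and macrophages, fell (log2 fold change −0.95 ± 0.24 SE, adjusted p = 0.0119), and miR-146b stood at −0.64 ± 0.29 SE, adjusted p = 0.103. Without P28 library 5 the log2 fold change of miR-155-5p was −0.90, but it was not called (adjusted p = 0.0546). In bulk tissue fewer cells of a type and less RNA per cell cannot be told apart, and the part of blood cells in the other changes was not tested.

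Within the muscle list, 3 of 8 tested miRNAs were called (37.5%, close to the 39.6% of all tested), all higher, with a list median of 0.57 beside 0.02 for all tested. miR-133a-3p, which is transcribed together with miR-1, measured 12735, 12139.9 and 9444 CPM at P1 and 18119, 20966 and 20388 CPM at P28 (log2 fold change 0.79 ± 0.13 SE, adjusted p = 0.00123). miR-133b measured 94.3, 132 and 88.9 CPM at P1 and 331, 279 and 253 CPM at P28 (log2 fold change 1.45 ± 0.19 SE, adjusted p = 2.27e-04). The log2 fold change was the larger for the scarcer miR-133b, a difference between the pair that was not tested, and neither overlapped between ages. For each of them only 1 of the 6 values was whole before rounding, so reads were divided with other mature miRNAs. Whether this pair shares reads was not tested, so the calls may not be separate observations.

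The miRNAs that sit within myosin heavy chain genes were not called. miR-208b, encoded within the slow myosin gene MYH7, measured 1370.2, 1319.6 and 933 CPM at P1 and 1156, 1539 and 1139.7 CPM at P28 (log2 fold change 0.08 ± 0.18 SE, adjusted p = 0.732), and miR-499-5p, encoded within MYH7B, measured 12199.6, 15273 and 15029 CPM at P1 and 15644, 15639.8 and 14920.1 CPM at P28 (log2 fold change 0.12 ± 0.12 SE, adjusted p = 0.431). Their 95% intervals were −0.31 to 0.48 and −0.14 to 0.38. miR-206, a skeletal muscle miRNA, measured 12.8, 15.0 and 14.3 CPM at P1 and 11.6, 43.6 and 16.5 CPM at P28, with library 5 alone high at P28 (log2 fold change 0.80 ± 0.42 SE, adjusted p = 0.149). miR-499-3p and miR-133a-5p were also not called.

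All 3 members of the miR-29 family, known for repressing collagens and other matrix genes, rose, where 21.2% of all tested did. miR-29a measured 31.1, 28.8 and 23.5 CPM at P1 and 112, 109 and 77.9 CPM at P28 (log2 fold change 1.85 ± 0.20 SE, adjusted p = 8.36e-05). miR-29b measured 1.74, 2.69 and 2.01 CPM at P1 and 14.4, 15.3 and 10.7 CPM at P28 (log2 fold change 2.62 ± 0.29 SE, adjusted p = 8.36e-05). miR-29c measured 5.52, 5.96 and 3.35 CPM at P1 and 16.6, 11.7 and 17.9 CPM at P28 (log2 fold change 1.62 ± 0.29 SE, adjusted p = 0.00187). The 3 come from a pair of clusters on different chromosomes, miR-29a with a copy of miR-29b and miR-29c with another copy. All were below 120 CPM at both ages, and miR-29b at P1 rested on 6 to 14 counts per library.

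Of 10 miRNAs of the miR-30 family, which is abundant in heart muscle, 4 were higher and 1 was lower (39.6% of all tested were called in either direction), with a median of 0.29, counting miR-30c-1-3p (log2 fold change −0.12 ± 0.20 SE, adjusted p = 0.667). miR-30b-5p measured 1041, 1165 and 881 CPM at P1 and 1930.0, 2161 and 1893 CPM at P28 (log2 fold change 0.95 ± 0.14 SE, adjusted p = 4.75e-04), the clearest of the family. miR-30e-5p measured 25585, 26234 and 22283 CPM at P1 and 26821, 34385 and 35256 CPM at P28 (log2 fold change 0.38 ± 0.13 SE, adjusted p = 0.0386), and miR-30e-3p had a log2 change of 0.42 ± 0.13 SE, adjusted p = 0.0314. miR-30c-5p rose as well (0.44 ± 0.15 SE, adjusted p = 0.0338) while miR-30c-3p fell (−0.60 ± 0.21 SE, adjusted p = 0.0440). Of these calls only that of miR-30b-5p stood in each leave-one-out fit and scaling. miR-30e-5p was not called without any one of the libraries except P28 library 4 (adjusted p up to 0.121) or with library totals (log2 fold change 0.13, adjusted p = 0.386). miR-30e-3p was lost without P1 library 4, P28 library 5 or P28 library 6 (up to 0.124), miR-30c-5p without P1 library 5 or 6 or P28 library 5 or 6 (up to 0.0948), each also with library totals (both 0.294), and miR-30c-3p without P1 library 4 or 6 or P28 library 5 or 6 (up to 0.155).

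Of 9 miRNAs tested of the let-7 family, which marks differentiated cells and restrains growth genes, let-7d-3p was higher, let-7g and let-7i were lower, and the median was −0.14. The share called, 33.3%, was not above the 39.6% of all tested. let-7i measured 7844, 8209.9 and 8999.9 CPM at P1 and 4303, 4304 and 4422 CPM at P28 (log2 fold change −0.94 ± 0.11 SE, adjusted p = 9.19e-05). Its P28 values were nearly equal and below all P1 values. let-7g measured 7248, 7865 and 8735 CPM at P1 and 5601, 5873 and 5359 CPM at P28 (log2 fold change −0.50 ± 0.11 SE, adjusted p = 0.00636), a difference that was not called without P28 library 5 or 6 (adjusted p up to 0.0755). let-7f, the most abundant of the family, measured 11611, 12814 and 13956 CPM at P1 and 10520.1, 11134 and 9877 CPM at P28 (log2 fold change −0.28 ± 0.11 SE, adjusted p = 0.0688). Summed over the family, the level was 34561 to 39435 CPM at P1 and 26613 to 28929.5 CPM at P28.

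The DLK1-DIO3 region is an imprinted locus that expresses its miRNAs from the maternal chromosome and is known from fetal tissues. Of its 13 miRNAs tested, 8 were called lower at P28 (beside 18.3% of all tested) and none higher, all 13 log2 fold changes were negative, and the median was −0.95 beside 0.02 for all tested. The summed level of the 13 was 909.8 to 978 CPM at P1 and 395 to 492 CPM at P28. miR-127, the most abundant, from a hairpin within the span of RTL1, measured 645, 655 and 613 CPM at P1 and 319.8, 286 and 383 CPM at P28 (log2 fold change −0.95 ± 0.14 SE, adjusted p = 5.24e-04). miR-758 measured 59.2, 51.1 and 50.7 CPM at P1 and 19.1, 23.2 and 24.8 CPM at P28 (log2 fold change −1.26 ± 0.19 SE, adjusted p = 4.97e-04), and miR-323 measured 22.4, 17.1 and 30.2 CPM at P1 and 7.68, 6.98 and 6.55 CPM at P28 (log2 fold change −1.71 ± 0.26 SE, adjusted p = 5.40e-04). With miR-370 these 4 made up most of the summed level, and in none did the ages overlap. The other called members were miR-411, miR-432-5p, miR-493-3p and miR-493-5p, with log2 fold changes between −1.42 and −0.86. Of these, miR-411 was not called without P1 library 6 or P28 library 5 (adjusted p up to 0.0775), and miR-432-5p and miR-493-3p not without P1 library 6, P28 library 5 or P28 library 6 (up to 0.137 and 0.102), and miR-493-5p missed the threshold with the DESeq2 test (0.0516). P1 library 6 weighed most on miR-493-3p and miR-432-5p, whose log2 fold changes were −0.74 and −0.65 without it against −1.42 and −1.05 with it.

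The X-linked cluster of miR-450a, miR-450b, miR-450c and miR-542 had 6 miRNAs tested, 4 of them called lower and none higher, beside 18.3% called lower among all tested. The other members were miR-542-5p (log2 fold change −0.26 ± 0.20 SE, adjusted p = 0.336) and miR-450c-3p, the one member with a positive value (0.49 ± 0.38 SE, adjusted p = 0.325). Beside miR-450c-5p the called miRNAs were miR-450a (log2 fold change −0.58 ± 0.17 SE, adjusted p = 0.0193), miR-450b-5p (−0.65 ± 0.14 SE, adjusted p = 0.00588) and miR-542-3p (−0.74 ± 0.14 SE, adjusted p = 0.00275). miR-450a was not called without P1 library 5 or 6 or P28 library 5 or 6 (adjusted p up to 0.0875). Both arms of miR-424, which together with miR-503 belongs to the miR-15 and miR-16 family, had negative log2 fold changes that were not called (miR-424-5p, −0.45 ± 0.17 SE, adjusted p = 0.0597).

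The miR-15 and miR-16 family is known for holding back the cell cycle, and miR-195 for doing so in the hearts of newborn mice. Of 8 members tested, 3 were higher and 1, miR-503, was lower, with a median of −0.24, where 39.6% of all tested were called. miR-16 measured 1278, 1157 and 948 CPM at P1 and 1619, 1823 and 1733 CPM at P28 (log2 fold change 0.61 ± 0.14 SE, adjusted p = 0.00600), without overlap, although it was not called with library totals (adjusted p = 0.0581). miR-15a (0.57 ± 0.20 SE, adjusted p = 0.0490) and miR-195 (0.53 ± 0.17 SE, adjusted p = 0.0315) rose by a similar amount from lower levels. miR-15a was not called without any one of the libraries except P28 library 4 (adjusted p up to 0.115), and miR-195 without P1 library 5, P28 library 4 or P28 library 6 (up to 0.0788), and neither was called with library totals (0.254 and 0.248).

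The miR-17-92 cluster and its copies, which promote proliferation, held 11 tested miRNAs, of which only miR-92b-3p was called (9.09%, beside 39.6% of all tested). miR-92b-3p, which comes from a hairpin of its own, measured 17.7, 17.7 and 17.4 CPM at P1 and 10.9, 10.9 and 9.65 CPM at P28 (log2 fold change −0.74 ± 0.20 SE, adjusted p = 0.0137), and was not called without P28 library 6 (adjusted p = 0.0562). miR-92a measured 1000.4, 1010.1 and 826 CPM at P1 and 1116, 1235 and 1118 CPM at P28 (log2 fold change 0.29 ± 0.13 SE, adjusted p = 0.0969), and miR-20a measured 859.9, 724 and 479 CPM at P1 and 496, 651 and 548 CPM at P28 (log2 fold change −0.28 ± 0.20 SE, adjusted p = 0.294). The 7 miRNAs of the miR-17-92 hairpins themselves had log2 fold changes between −0.28 and 0.38, with none called. Among them, miR-19b and miR-92a are summed with their hairpins in a copy of the cluster on the X chromosome.

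Of 9 miRNAs linked to fibroblasts and stress, 6 were lower and none higher, beside 18.3% called lower among all tested, with a median of −0.47. miR-199a-5p measured 2189, 1762 and 1755 CPM at P1 and 1342, 1422 and 1316 CPM at P28 (log2 fold change −0.48 ± 0.13 SE, adjusted p = 0.0137), and miR-199b-5p measured 3502, 2961 and 2117 CPM at P1 and 1559.7, 2068 and 1832 CPM at P28 (log2 fold change −0.65 ± 0.19 SE, adjusted p = 0.0193). miR-199a-3p and miR-199b-3p also fell, but reads of this pair match both and had been divided among their precursors, so they count as 1 observation, which leaves 5 lower of 8. miR-34a, a p53 target that rises with cardiac age in mice, had a log2 change of −0.80 ± 0.26 SE, adjusted p = 0.0338. Of the 6, only miR-132 was called in each leave-one-out fit. miR-199a-5p was lost without P28 library 6 (adjusted p = 0.0561), miR-199b-5p without P1 library 4 or P28 library 6 (up to 0.0666), the shared miR-199a-3p and miR-199b-3p without P1 library 5 or P28 library 5 or 6 (up to 0.0928), and miR-34a without P1 library 4 (log2 fold change −0.46) or P28 library 5 or 6 (adjusted p up to 0.134). miR-21, miR-214 and miR-34c were not called.

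Of 6 endothelial miRNAs tested, miR-221-3p and miR-222 fell (33.3% called, beside 39.6% of all tested), and neither arm of miR-126 was called. miR-221-3p, a repressor of the cell cycle inhibitor p27, measured 116, 87.6 and 85.8 CPM at P1 and 60.2, 44.5 and 43.1 CPM at P28 (log2 fold change −0.96 ± 0.20 SE, adjusted p = 0.00396). miR-222, its neighbour, measured 63.0, 36.5 and 28.8 CPM at P1 and 27.5, 14.2 and 15.9 CPM at P28 (log2 fold change −1.15 ± 0.34 SE, adjusted p = 0.0209). Library 4 was the highest of its age for both, and miR-222 was not called without P1 library 4, P28 library 5 or P28 library 6 (adjusted p up to 0.109). None of the 4 smooth muscle miRNAs was called: beside miR-143-3p, the log2 fold changes were −0.19 ± 0.15 SE, adjusted p = 0.343 for miR-143-5p, 0.31 ± 0.18 SE, adjusted p = 0.198 for miR-145-5p and −0.27 ± 0.19 SE, adjusted p = 0.294 for miR-145-3p.

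The clusters of miR-23, miR-24 and miR-27 had 8 miRNAs tested, 4 higher and 1 lower (beside 21.2% and 18.3% of all tested), with a median of 0.43, counting miR-24-1-5p (log2 fold change 0.30 ± 0.18 SE, adjusted p = 0.219) and miR-24-2-5p (0.42 ± 0.19 SE, adjusted p = 0.0994), which were not called. miR-27a measured 529, 584 and 521 CPM at P1 and 1409.6, 826 and 1081 CPM at P28 (log2 fold change 1.02 ± 0.18 SE, adjusted p = 0.00182), with library 4 the highest at P28. miR-24-3p measured 4654, 4644 and 5624 CPM at P1 and 8036, 7396 and 7301 CPM at P28 (log2 fold change 0.61 ± 0.12 SE, adjusted p = 0.00296). miR-27b-3p measured 22466, 27557 and 22034 CPM at P1 and 39089.9, 28521 and 32309 CPM at P28 (log2 fold change 0.47 ± 0.14 SE, adjusted p = 0.0229), where P1 library 5 and P28 library 5 nearly met, and miR-23b had a log2 change of 0.44 ± 0.13 SE, adjusted p = 0.0220. miR-27b-3p was not called without P1 library 4 or 6 or P28 library 4 or 6 (adjusted p up to 0.0695) or with library totals (0.207), and miR-23b not without P1 library 5 (0.0738) or with library totals (0.308).

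Of the miR-99, miR-100, miR-125 and miR-10 miRNAs, miR-100 alone was called of 7 tested (14.3%, beside 39.6% of all tested). miR-100, known for restraining mTOR signalling, measured 14145, 14432 and 14712 CPM at P1 and 22428, 22965 and 26492 CPM at P28 (log2 fold change 0.73 ± 0.11 SE, adjusted p = 4.97e-04). Its close relative miR-99a, at a similar level at P1, measured 16692, 19567 and 23596 CPM at P1 and 19416, 17395 and 17992 CPM at P28 (log2 fold change −0.13 ± 0.13 SE, adjusted p = 0.466), and miR-125b had a log2 change of 0.31 ± 0.12 SE, adjusted p = 0.0659. None of the 4 tested miR-181 miRNAs, known from lymphocytes and mitochondria of heart muscle, was called. miR-181a measured 2117, 2084 and 1877 CPM at P1 and 1744, 1979 and 2118 CPM at P28 (log2 fold change −0.06 ± 0.12 SE, adjusted p = 0.732), and miR-181b, miR-181c and miR-181d-5p had log2 fold changes of −0.29, 0.43 and 0.41.

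**Figure D3:**
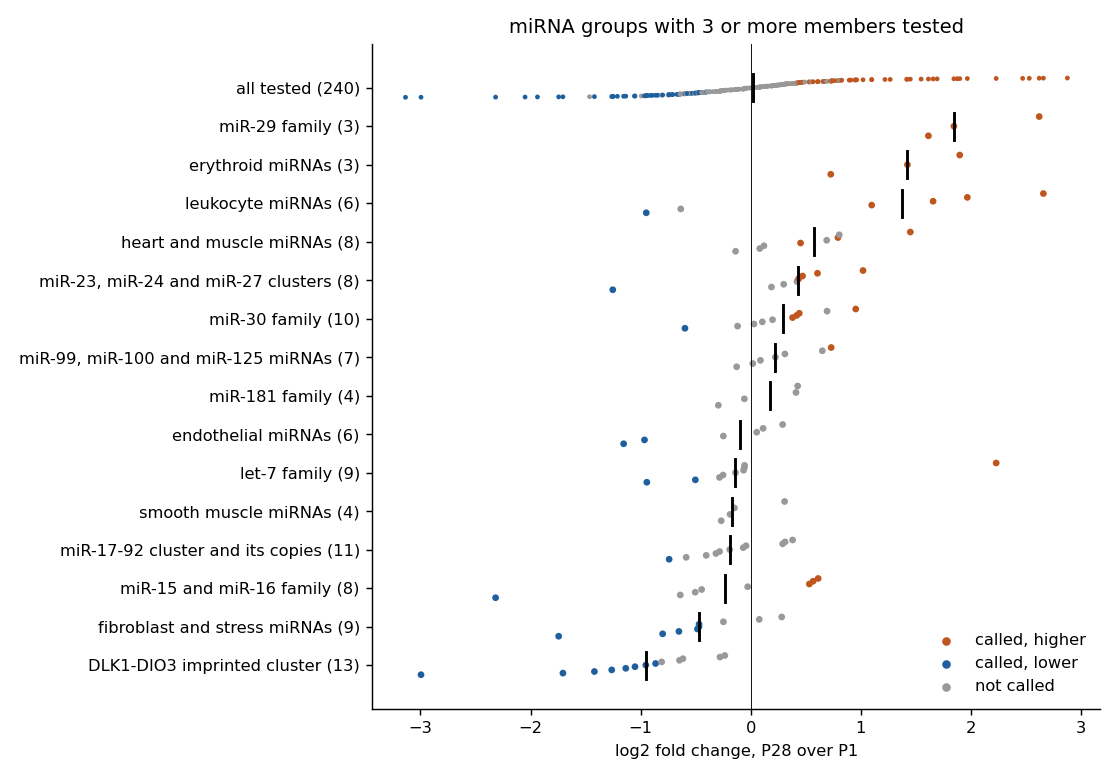
Log2 fold change, P28 over P1 (x axis), of every tested member of the 15 miRNA groups with 3 or more members tested and of all 240 miRNAs (top row); each point is 1 miRNA, orange if called higher, blue if called lower and grey if not called, and the black bar is the median. The DLK1-DIO3 points all lie left of 0 and the miR-29 and erythroid points all lie right of it, whereas most other groups straddle 0.

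Each hairpin yields both arms, and one of them is usually kept in larger number. Both arms passed the filter for 45 hairpin names, and the log2 ratio of 5p to 3p counts differed between ages in 10 of them (22.2%) by limma with Benjamini-Hochberg adjustment, toward 5p at P28 in 6 and toward 3p in 4. In none of the 45 did the mean log2 ratio change sign. The clearest was let-7d, whose log2 ratio was 3.20, 2.95 and 3.37 at P1 and 0.80, 1.02 and 0.79 at P28 (change −2.31 ± 0.18 SE, adjusted p = 1.48e-04). let-7d-5p itself stood at a log2 change of −0.06 ± 0.13 SE, adjusted p = 0.744, beside the rise of let-7d-3p given above.

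For miR-423 the log2 ratio was −1.22, −1.35 and −1.39 at P1 and −0.23, −0.13 and −0.23 at P28 (change 1.13 ± 0.15 SE, adjusted p = 0.00268), and the arms were called in opposite directions, miR-423-5p higher (log2 fold change 0.45 ± 0.14 SE, adjusted p = 0.0229) and miR-423-3p lower (−0.67 ± 0.12 SE, adjusted p = 0.00182). The same held for miR-27b, with a log2 ratio of −9.89, −11.07 and −11.11 at P1 and −12.54, −12.29 and −12.09 at P28 (change −1.61 ± 0.35 SE, adjusted p = 0.0143), where the scarce miR-27b-5p measured 23.5, 12.7 and 9.83 CPM at P1 and 6.44, 5.64 and 7.24 CPM at P28 (log2 fold change −1.25 ± 0.34 SE, adjusted p = 0.0150). The names miR-30c-5p and miR-30c-3p also went in opposite directions, but they are not the arms of 1 hairpin, since the 5p counts are summed over 2 hairpins and the 3p comes from 1 of them. Their log2 ratio was 5.78, 6.24 and 5.91 at P1 and 6.51, 7.11 and 7.38 at P28 (change 1.03 ± 0.26 SE, adjusted p = 0.0303). miR-423-5p was not called without P1 library 5 or P28 library 4 (adjusted p up to 0.0581) or with library totals (0.294), and miR-27b-5p not without P28 library 5 (0.0745), while its log2 fold change was −0.83 without P1 library 4. In miR-139 the ratio was 5.04, 4.996 and 5.39 at P1 and 6.94, 6.40 and 6.24 at P28 (change 1.38 ± 0.23 SE, adjusted p = 0.00606), and in miR-133a it was −5.56, −5.75 and −5.37 at P1 and −6.36, −6.55 and −6.57 at P28 (change −0.94 ± 0.17 SE, adjusted p = 0.00805).

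The remaining called hairpins were miR-450c, miR-296, miR-455 and miR-221, with changes in log2 ratio of −1.75, 1.64, 0.66 and 0.76. Leaving out 1 library at a time left between 7 and 10 hairpins called, and miR-30c, miR-455 and miR-221 were the ones lost (adjusted p up to 0.104, 0.156 and 0.201). A ratio within a library does not depend on the scaling between libraries. In several called hairpins the scarce arm gave few counts in a library: 8 to 19 for miR-450c, 6 to 41 for miR-296, 20 to 60 for miR-139, 33 to 77 for miR-221 and 21 to 81 for miR-27b.

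**Figure D4:**
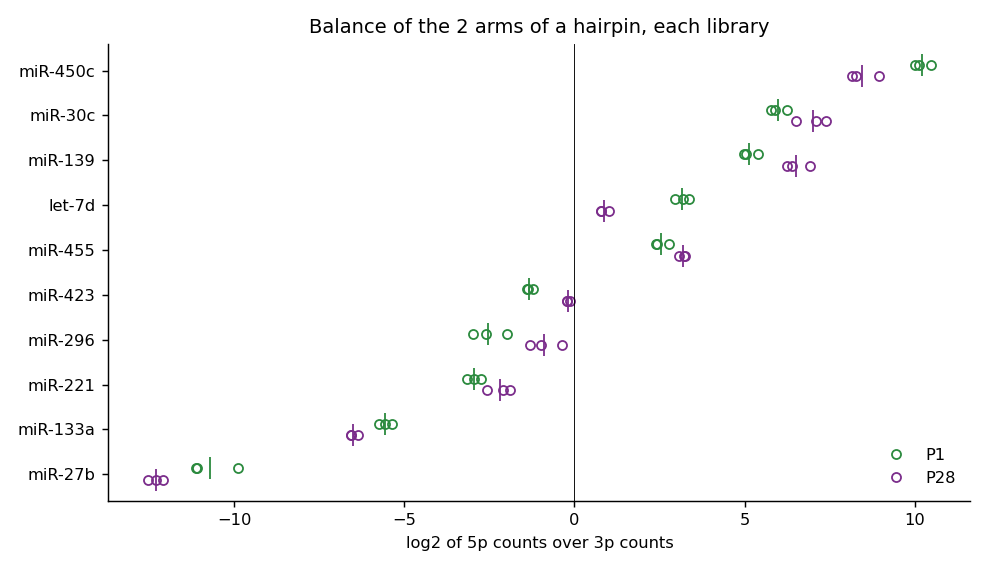
Log2 of 5p counts over 3p counts (x axis) in each library for the 10 hairpin names whose ratio was called different between ages; green circles are P1, purple circles P28, and ticks are means of 3. let-7d moved from near 3 to near 1 and miR-423 from below −1 to near 0, and no hairpin crossed 0.

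miRNAs of neighbouring hairpins were called together in some clusters and apart in others. By the positions of their genes in RefSeq's annotation of assembly Sscrofa11.1, 198 of the 227 precursors of the tested miRNAs could be placed, and hairpins within 10 kb of each other formed 31 clusters. Of the 17 clusters with 3 or more miRNAs tested, 6 had all log2 fold changes of 1 sign. Both hairpins of miR-144 and miR-451 gave higher miRNAs, as did miR-15a with miR-16, whereas let-7d shared a cluster with let-7a and let-7f and only let-7d-3p was called there. In the pair of miR-195 and miR-497, miR-195 rose and miR-497 stood at −0.50 ± 0.24 SE, adjusted p = 0.114. In the pair of miR-199a and miR-214, miR-199a fell and miR-214 stood at 0.28 ± 0.14 SE, adjusted p = 0.135. The values of let-7a, let-7f and miR-199a are each summed over 2 hairpins, and only 1 of the 2 lies in the cluster named. They therefore do not show the level of the neighbouring hairpin alone. A miRNA summed over several hairpins entered each cluster that holds any of them.

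The ages between were read from the 6 libraries of P3 and P7 in the same batch, scaled together with those of P1 and P28 and used only as a description. Of the 22 miRNAs called with a log2 fold change above 1, 10 rose at every step from P1 through P3 and P7 to P28, and of the 16 below −1, 7 fell at every step. The 22 include miR-217 and miR-9841-3p, which passed the filter through P28 alone, and the 10 include miR-9841-3p. P3 library 6 lay nearer to the P28 level than the other P3 libraries in 19 of these 38, among them let-7d-3p, where it was already at the later level and the others were at the P1 level. Without this library the counts were again 10 and 7, but 4 of the 17 miRNAs were replaced by others. How far a change had gone by P7 depended on the scale. On the log2 scale the median miRNA had covered 55.3% of its P1 to P28 change among the 22 and 29.4% among the 16, whereas in CPM the shares were 34.5% and 45.5%. miR-95 had covered 53.5% on the log2 scale and 31.2% in CPM, miR-210 47.8% and 73.8%, and let-7d-3p 94.6% and 90.2%.

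Other miRNAs stood near their P1 level at P7, or beyond it on the other side. By P7 miR-370 had covered 8.12% of its fall on the log2 scale and 18.2% in CPM, and miR-450c-5p 17.2% and 24.9%. miR-29a at P7 was below its P1 level (mean of 21.5 against 31.6 CPM on this scale), as was miR-101 (4304 against 4659 CPM), and miR-758 was above it (83.0 against 61.0 CPM). miR-215 and miR-132 had made most of their fall by P3, at 89.4% and 59.4% on the log2 scale.

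**Figure D5:**
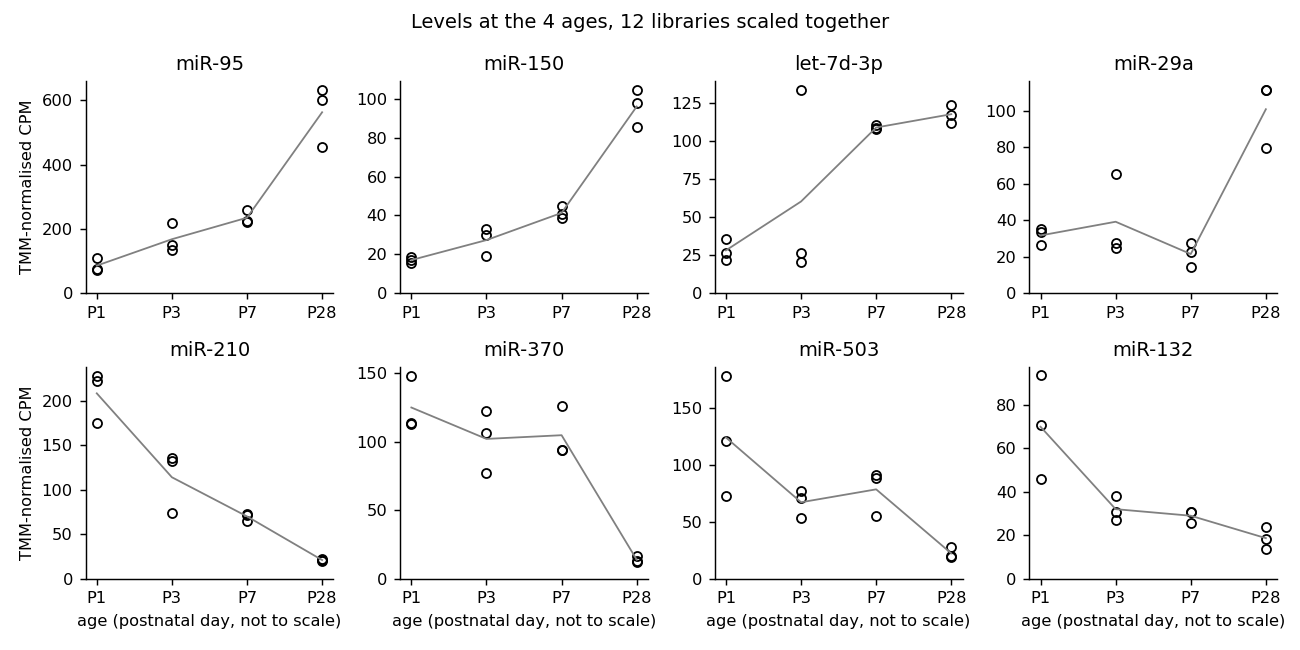
TMM-normalised CPM (y axes, from 0) of 8 miRNAs at P1, P3, P7 and P28 (x axis, not to scale), with the 12 libraries of batch cd scaled together; each circle is 1 library and the line joins the means of 3. miR-210 and miR-132 fall from P1 onward, miR-370 stays near its P1 level through P7, and miR-29a is high in all 3 libraries only at P28.

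The study assayed several miRNAs in human stem cell-derived heart muscle cells, and rows here that carry their family numbers are given for reference. Of these rows only miR-140-5p names an arm, so the others are not shown to be the arm that was assayed. miR-128, which represses growth genes and restrains proliferation in newborn mouse hearts, measured 645, 677 and 871 CPM at P1 and 691, 787 and 742 CPM at P28 (log2 fold change 0.02 ± 0.14 SE, adjusted p = 0.921). miR-140-5p measured 173, 153 and 140.1 CPM at P1 and 139.9, 136 and 138 CPM at P28 (log2 fold change −0.17 ± 0.14 SE, adjusted p = 0.356). The age groups overlapped for miR-128 and were barely apart for miR-140-5p, and neither was called, with 95% intervals of −0.30 to 0.34 and −0.49 to 0.15. miR-31 had 0 or 1 count per library and was not tested, nor were miR-105-1, with 0 to 2 counts, and miR-105-2, with none, while the rows of miR-215, miR-15a and miR-214 are described above.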

How the data were processed

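Small RNA was sequenced from hearts of 3 pigs at P1 and 3 at P28 in batch cd. The authors deposited an expected count for each combination of a mature miRNA with a precursor, not normalized, in which reads matching several places are divided into fractions. The aligner, counter and genome build behind this table are not given in the sources used here. Over the 6 libraries 80.7% of values were whole to within 0.06. Precursor rows were expected to repeat the reads of a mature miRNA. The fractions show them divided, so the rows of a mature miRNA were summed, which made 90.4% of values whole, and rounded. In 75 tested miRNAs a value stayed fractional, since reads were also divided with other mature miRNAs. Synonymous names of the same reads (5 names) were joined, which left 406 of 411 mature names from 486 rows. Other overlapping names stayed apart and count separately in the totals. Among them are miR-199a-3p with miR-199b-3p, and miR-339 with miR-339-5p, which share a precursor, all called lower.

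Counts were tested in edgeR 4.0.16 (R 4.3.3) with TMM scaling, the quasi-likelihood test and Benjamini-Hochberg adjustment over the 240 tested miRNAs. Ratios of arms were tested in limma 3.58.1 on log2 counts with a prior count of 0.5. The common dispersion was 0.0333, a coefficient of biological variation of 18.2%. The fits were tested on simulated data. Errors of log2 fold changes are standard errors from the fit (n = 3 at each age), and p-values measure the spread between these pigs.

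The miRNAs named are the 10 with the smallest p in each direction, the 10 most abundant, and in each list every member where up to 4 were tested, otherwise the 2 with the smallest p and the 2 most abundant. Other names were chosen after their values were seen, and those of the study's cell assays came from its text. The comparison, the lists and the rules were chosen with earlier results of these data known. Alternatives were DESeq2 1.42.0, limma voom, other scalings, filters and treatments of precursor rows, all 12 libraries, a block on the library number, and each library left out. The libraries were made without molecular identifiers, so repeated reads of 1 molecule may be counted. Mature sequences are not shown here.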

Additional observations from a re-analysis of the deposited data

How the results depend on the processing

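Between 65 and 109 miRNAs were called over the alternatives, and no call changed sign. Calls numbered 100 with DESeq2 size factors, 107 with library totals, 87 with upper quartile scaling, 98 with the DESeq2 test, 96 with limma voom, 95 with no filter on low counts, 96 with 10 counts required in all 6 libraries and 96 with all 12 libraries in the fit. Library totals moved the lower calls to 71 and the median to −0.23. Leaving out 1 library gave 65 to 96 calls, with 25 to 43 lower calls against 44, the fewest (25) without P28 library 5 and again without P28 library 6. The 107 listed miRNAs tested, without those named for a numbered hairpin copy, held 51 calls, and 32 without P28 library 6. In all 6 such fits 55 miRNAs were called, 36 higher and 19 lower. The design first fixed the largest precursor row in place of the sum, which gave 92 calls among 236 miRNAs. Keeping precursor rows apart gave 109 calls among 273 entries, and using miRNAs with 1 precursor row only gave 78 among 201. Leaving miR-1 out before scaling, an alternative chosen after seeing the data like that of the largest row, gave 94. The readings of P3 and P7 in CPM and without P3 library 6 were also chosen after seeing the data.

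With the library number as a replicate block 90 miRNAs were called, 88 of them among the 95. Deviations of libraries of the same number at P1 and P28 had correlations of 0.07, −0.14 and −0.06, and those of different numbers −0.14 to 0.22. With 3 libraries at each age this cannot decide whether the numbers pair the pigs, and the labels do not say.

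Some values near 0 that were not called turned sign. miR-30d went to −0.00131 with DESeq2 size factors and with the DESeq2 test, −0.222 with library totals, −0.0818 with upper quartile scaling and −0.135 with all 12 libraries, and miR-126-3p to −0.197, −0.0747 and −0.110 with the last 3 of these. miR-30a-5p went to −0.0539 with library totals. Leaving out 1 library gave log2 fold changes of −0.0229 (without P28 library 6) to 0.116 for miR-30d, −0.0118 (without P28 library 6) to 0.264 for miR-126-3p, which was also below 0 without P1 library 4 or 5, −0.240 to 0.0865 (without P1 library 6) for miR-99a and −0.0887 to 0.0159 (without P28 library 4) for miR-181a. The cause was not tested. With 3 libraries at each age and a median replicate SD of 0.199 on the log2 scale, small changes and miRNAs of few counts are the least certain.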

Other observations

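1 of the P28 hearts differed from the other P28 hearts in miRNAs of the HOX gene clusters and in a skeletal muscle miRNA. miR-196a, encoded in HOX clusters, had 34 counts in P28 library 5, 1 in P28 library 6 and none in the other 4 libraries. It did not reach the filter and was the only miRNA with at least 20 counts in a library and a level at least 3 times that of every other library. miR-10a-5p, also from a HOX cluster, measured 129 CPM in P28 library 5 against 29.5 and 38.6 CPM in the other P28 libraries, and 79.7 CPM in P1 library 6 against 22.1 and 25.4 CPM in the other P1 libraries. miR-10b measured 554 CPM in P28 library 5 and 297 to 379 CPM in the other 5. With the 12 libraries of the batch scaled together, miR-10b was higher in P7 library 6 (716 CPM) than in P28 library 5 (569 CPM). On that scale miR-10a-5p measured 103 CPM in P7 library 6 and 133 CPM in P28 library 5, so high levels were not particular to this heart. miR-206 measured 43.6 CPM in P28 library 5 and 11.6 to 16.5 CPM in the other 5. These miRNAs were chosen after their values were seen.

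The liver miRNA miR-122 had 60 and 26 counts in P1 libraries 5 and 6 and 3 to 7 counts in the other 4. At the edge of the filter, 7 miRNAs entered with 10 counts in exactly 3 libraries, among them miR-34c, miR-217 and miR-671-5p, and 11 had 10 counts in exactly 2 and stayed out, among them miR-122, miR-187 and miR-96-5p.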
